A study of Solanum tuberosum with 36 samples.

Results

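The comparison described here is that of Gwiazda potato leaves after 6 days without water with Gwiazda leaves of well-watered plants on day 0. It takes 6 of the 36 RNA-seq libraries of the series, 3 for each day, chosen by their labels, and covers all 25289 genes counted. Gwiazda is a drought-tolerant cultivar of Solanum tuberosum and is related to the drought-sensitive Oberon. The series also holds Tajfun, another tolerant cultivar, and its sensitive relative Owacja, as well as leaves from day 10. Plants grew in pots in a half-open greenhouse, watering stopped 3 weeks after tubers had begun to form, and leaves from the upper whirls of the plant were taken from 3 different plants of a cultivar on each day. The volumetric water content of the soil was 0.361 m3/m3 under watering and -0.040 m3/m3 on day 6. The day 0 leaves are the labelled control, and no day 6 library of watered plants is labelled, so that lack of water and 6 further days of growth cannot be told apart. In whole leaves, fewer cells of a type and less RNA per cell cannot be told apart either.

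A plant that loses water makes abscisic acid (ABA), a hormone that closes the stomata and switches on genes for protective proteins. Dehydrins and other late embryogenesis abundant (LEA) proteins are hydrophilic proteins that accumulate in drying seeds and in leaves short of water, where they are thought to shield membranes and enzymes. Growth, photosynthesis and primary metabolism are usually turned down at the same time. RAB18, a dehydrin gene that responds to ABA, served the study as its marker of water deficit.

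The results below turn on a few genes, and the primer pairs with which the study followed these genes by RT-PCR are given here, 5′ to 3′, because they identify the transcripts whose reads are described. The pairs belong to 2 strongly raised protective protein genes (RAB18 and CAP160), a kinase gene, a fermentation enzyme gene, 2 genes whose response differed from that in Oberon and Tajfun, and 1 gene chosen by the study as stable.
RAB18 primer 1: gtaatctgaggatgatgg
RAB18 primer 2: gggagcttctctttgatctt
CAP160 forward: ccgaaactcgcgaaactaag
CAP160 reverse: aaaccggagcaagttttcctg
MAPKKK15 forward: gccaattggagggacaatgg
MAPKKK15 reverse: gcctcggaaaattgagactg
alcohol dehydrogenase forward: atgccaagaaattcggtgtc
alcohol dehydrogenase reverse: tcgggccttttagaacacac
cytochrome P450 forward: tcgaaccctaggactcatgg
cytochrome P450 reverse: agtaaatcgcttcccagcaa
adenylyl cyclase-associated protein forward: ctgtcgaaagctccttcacc
adenylyl cyclase-associated protein reverse: taggagctgagccctgacat
BTB-POZ and MATH protein forward: gtcgatacctttgctgttgcc
BTB-POZ and MATH protein reverse: cttacagagttccgggagca

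After 6 days without water the Gwiazda leaf transcriptome had changed widely. Of 18893 genes with a mean of at least 10 normalized reads, 3277 (17.3%) were called at an adjusted p below 0.05. Transcripts of 1368 genes (7.24%) rose and those of 1909 genes (10.1%) fell. Normalized reads are reads per gene divided by the size factor of the library, and a call is a limma test of log2(normalized reads + 1) with Benjamini-Hochberg adjustment over all tested genes. In each of the 3277 called genes the 3 libraries of day 0 and the 3 of day 6 did not overlap. Some genes that were not called lacked overlap too, and their share over all tested genes was not counted. The lack of overlap therefore adds no support to the calls. At an unadjusted p below 0.05 the number was 6098. The number of calls depended on single libraries, with 1192 calls (550 rose, 642 fell) without day 0 library a, 1676 without day 0 library c and 2037 without day 6 library a. Without day 0 library b rises slightly outnumbered falls, at 1428 and 1403, while falls outnumbered rises without any other library.

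Over the called genes, the median difference was larger for falls than for rises. More of the fallen genes were weakly expressed, with 365 fallen and 126 risen genes at a mean of 10 to 100 normalized reads. The sizes were not compared at like abundance. The median log2 difference was 1.54 over the risen genes and -1.93 over the fallen genes, beside -0.05 over all tested genes. A change of at least 2-fold, on the log2(normalized reads + 1) scale, was found for 1081 of the risen and 1700 of the fallen genes. At a log2 difference of 4 or more stood 170 risen and 369 fallen genes. Among genes that had reads on both days, the median was 1.53 for 1343 risen genes and -1.79 for 1761 fallen genes.

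**Figure D1:**
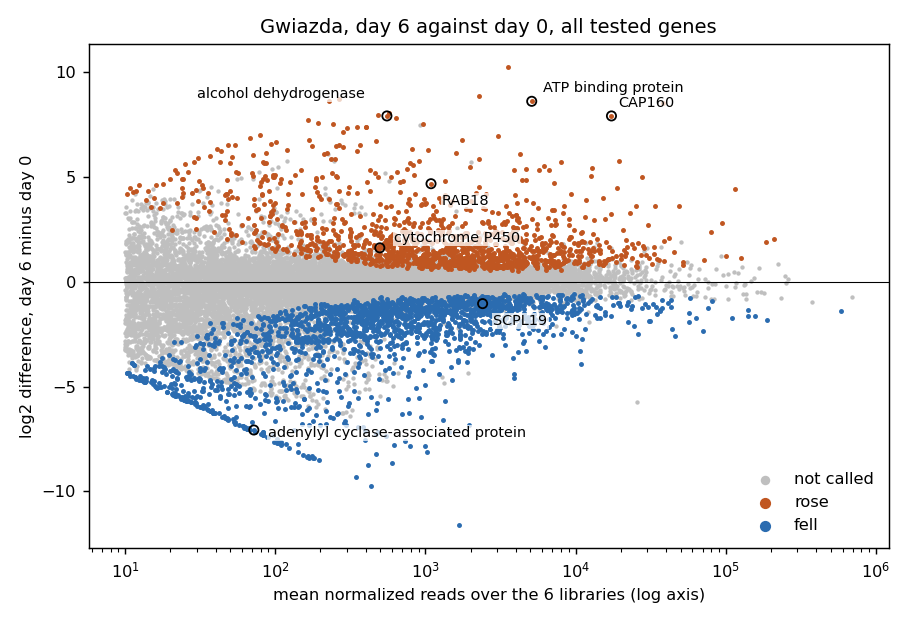
Log2 difference between day 6 and day 0 (vertical axis, log2(normalized reads + 1)) against the mean normalized reads over the 6 Gwiazda libraries (horizontal log axis), 1 point per tested gene. Orange points are the 1368 genes that rose, blue points the 1909 that fell and grey points genes not called, and some named genes are marked.

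The balance of rises and falls shifted with abundance. Of 5148 genes with a mean of 10 to 100 normalized reads, 2.45% rose and 7.09% fell. Of 7824 genes with a mean of 100 to 1000, 6.03% rose and 11.2% fell. Of 5346 genes with a mean of 1000 to 10000, 12.4% rose and 11.1% fell, and of the 575 genes above that, 19.0% rose and 13.4% fell. Among called genes, falls thus outnumbered rises below a mean of 1000, and rises outnumbered falls among the more strongly expressed ones. The 100 most abundant genes nevertheless held 12 that rose and 17 that fell. The risen genes took 6.95% ± 0.22 of all reads on day 0 and 21.0% ± 2.81 on day 6 (SD, n = 3 each). The fallen genes went from 20.5% ± 0.539 to 7.47% ± 1.34 of the reads (SD, n = 3 each). These shares describe genes chosen by the test on the same libraries.

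**Figure D2:**
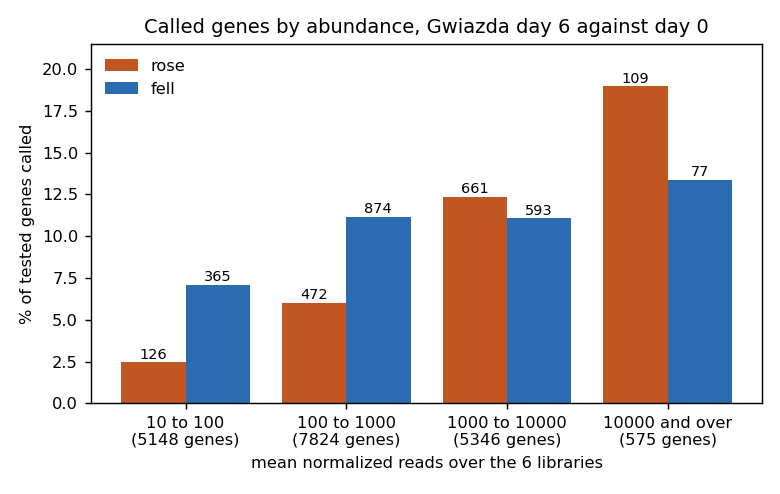
Percentage of tested genes called as risen (orange) or fallen (blue) in 4 classes of mean normalized reads over the 6 Gwiazda libraries, with the number of tested genes under each class. The share of rises climbs from 2.45% in the lowest class to 19.0% in the highest, and the share of falls from 7.09% to 13.4%.

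The ratio of the 2 group means, which needs no test, gave the same order of directions. Among 14429 genes with a mean of at least 100 normalized reads on either day, 1394 (9.66%) were at least 2-fold higher and 2237 (15.5%) at least 2-fold lower on day 6. With a minimum mean of 1000, 726 genes were higher and 753 lower. These ratios therefore did not show the excess of rises seen among strongly expressed called genes.

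The libraries held between 35693914 and 40437223 recovered reads in genes. These totals exceed the mapped reads that the study lists for any library of the same groups. Their scale was set by taking the common step of the values as a read pair. As a check that depends on this scale, size factors were recomputed from the recovered reads. All 60 matched those in the deposited means to within a relative difference of 1e-14. The reason for the excess was not tested. The numbers 20850, 21432 and 20486 of genes with reads on day 0 lay above the 19375, 18938 and 20433 of day 6. Libraries are named a, b and c within a day in descending order of total reads, and these letters are not the replicate numbers of the labels. By the study's listing, a single Gwiazda day 6 library had a far higher share of reads mapped to multiple loci than the other Gwiazda libraries. Which letter it carries here is not known. The first principal component, 52.8% of the variance, separated the days, and day 6 library c lay between the others, at 47.72 beside 126.56 and 155.86 for its fellows. Its correlation with the day 0 libraries was 0.836 to 0.866 over the tested genes, while that of day 6 library b was 0.779 to 0.799. In 803 of the risen genes (58.7%) and 1015 of the fallen genes (53.2%), library c was the day 6 library nearest to day 0. Without library c, 3189 genes were called, 1202 rising and 1987 falling. The total was close to that with it, but the genes changed. Of the genes called with library c, 1061 of 1368 risen and 1585 of 1909 fallen were called again.

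**Figure D3:**
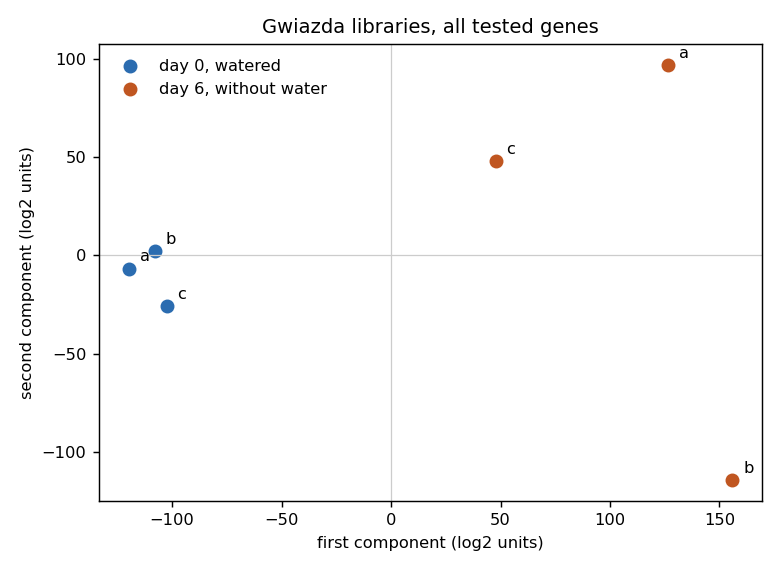
First and second principal component (log2 units) of the 6 Gwiazda libraries over all tested genes, 1 point per library, blue for day 0 and orange for day 6. The 3 day 0 libraries lie together, between -119.56 and -102.56 on the first component, and the day 6 libraries lie apart, with library c nearest to day 0.

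The study singled out 24 genes by name, RAB18 as a marker and 23 drought-related genes selected separately in each pair of cultivars. The 9 genes selected in Gwiazda and Oberon were chosen with these libraries, so their changes are no independent evidence of a direction. Beside the 17.3% of all tested genes, 13 of these 24 were called, 10 rising and 3 falling. Of these 9, 6 rose and 1 fell. Of the 14 chosen only from Tajfun and Owacja, 3 rose, 2 fell and 9 were not called.

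Of the 6 genes grouped here as protective proteins, 4 were called as risen, beside 7.24% of all tested genes, and none as fallen. Their median log2 difference was 4.84. The study took them as a marker of drought or selected them for changes under drought, so that a rise of the group was favoured by the choice. RAB18 (PGSC0003DMG400003531) had 73.9, 31.6 and 146 normalized reads in the day 0 libraries and 1883, 3472 and 926 in the day 6 libraries. Every day 6 leaf sample thus held several times more of this dehydrin transcript than any watered sample. The mean went from 83.9 ± 57.9 to 2094 ± 1286 (SD, n = 3 each), 25.0-fold, with a log2 difference of 4.68 (SE 0.64, adjusted p = 0.00372 by limma).

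CAP160 (PGSC0003DMG400014293) encodes a protein related to the ABA-induced LTI65/RD29B proteins of Arabidopsis. Its transcript counted 84.8, 76.3 and 378 normalized reads on day 0 and 47708, 33918 and 21736 on day 6. From a low level it thus moved to a mean of 34454 ± 12995 (SD, n = 3), above the 10000 that marks the most abundant class. The ratio of the means was 192, the log2 difference was 7.91 (SE 0.60, adjusted p = 0.000609 by limma), and CAP160 ranked as number 10 among the risen genes.

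The LEA gene named embryogenesis abundant protein (PGSC0003DMG400008497) was nearly silent in watered leaves, at 3.61, 1.86 and 16.7 normalized reads. On day 6 it had 393, 325 and 72.6, the lowest value being that of library c. The log2 difference was 5.10 (SE 0.93, adjusted p = 0.0101 by limma), and the call was lost without day 0 library a (adjusted p = 0.057) and with voom weights (adjusted p = 0.0999). Ci21B (PGSC0003DMG400024093) behaved alike, with 5.41, 11.2 and 14.6 normalized reads on day 0 and 734, 699 and 74.7 on day 6. Its libraries did not overlap, and day 6 library c again stood lowest. The log2 difference of Ci21B was 4.99 (SE 0.92, adjusted p = 0.0106 by limma), and it too lost its call without day 0 library a (adjusted p = 0.0611) and with voom weights (adjusted p = 0.16).

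The other 2 genes grouped here with the protective proteins did not pass the test, although their day 6 values lay above all day 0 values. The low molecular weight heat-shock protein gene (PGSC0003DMG400039484), which encodes a small chaperone, had 139, 39.1 and 98.1 normalized reads on day 0 and 294, 469 and 173 on day 6, a log2 difference of 1.81 (SE 0.57, adjusted p = 0.0661 by limma). ST225 (PGSC0003DMG400003688) had 83.0, 31.6 and 115 on day 0 and 238, 254 and 194 on day 6. Its log2 difference of 1.74 (SE 0.51, adjusted p = 0.0528 by limma) lay just outside the threshold and passed it in 5 of the alternatives, with library quality weights (adjusted p = 0.0424) among them.

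**Figure D4:**
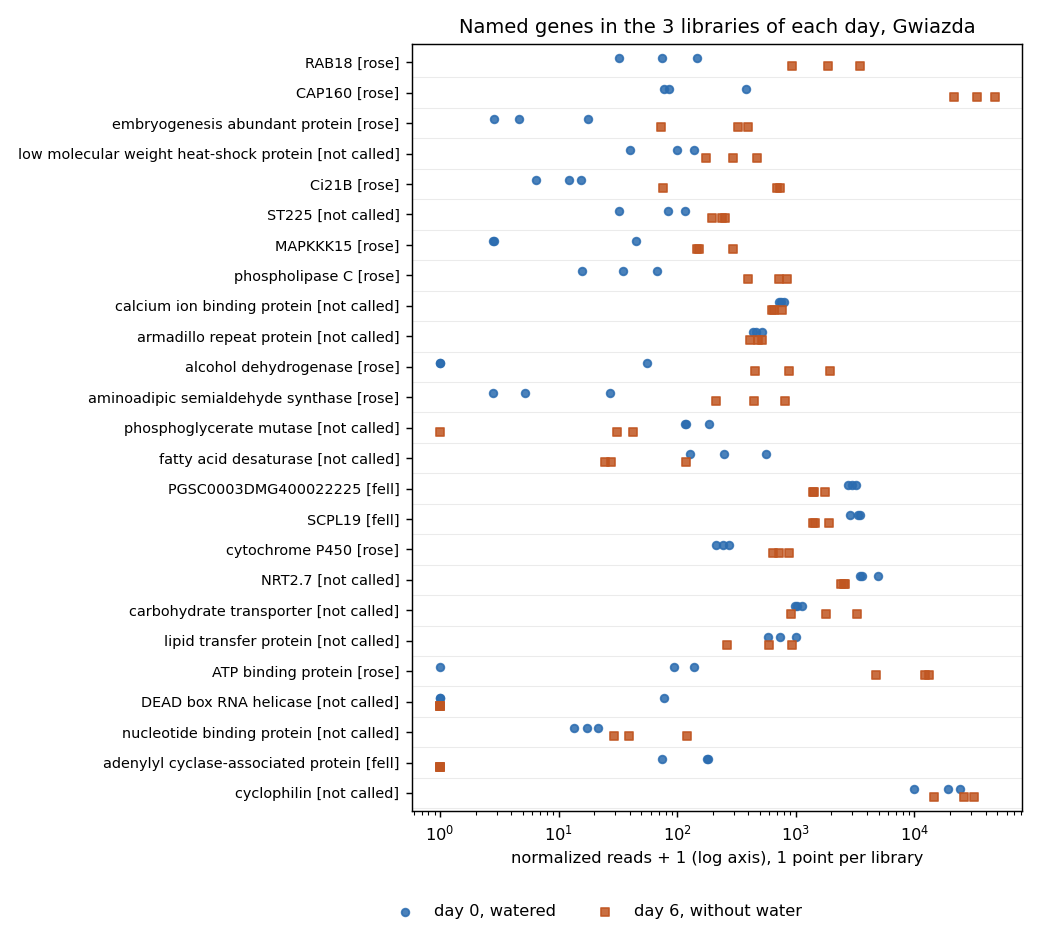
Normalized reads + 1 (horizontal log axis) of 25 named genes in the 6 Gwiazda libraries, blue circles for day 0 and orange squares for day 6, 1 point per library, with the call in brackets. CAP160 lies between 76.3 and 378 normalized reads on day 0 and between 21736 and 47708 on day 6, while the calcium ion binding and armadillo repeat genes overlap between days.

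Of 4 signalling genes, 2 rose, beside 7.24% of all tested genes, and 2 were not called. All 4 were selected by the study for changes under drought, so that calls were favoured by the choice. Phospholipase C (PGSC0003DMG400001621), an enzyme that cleaves membrane lipids and so makes signal molecules, had 34.3, 14.9 and 66.8 normalized reads on day 0 and 726, 848 and 397 on day 6. This was a 17.0-fold higher mean, at 657 ± 233 beside 38.6 ± 26.2 (SD, n = 3 each), with a log2 difference of 4.22 (SE 0.58, adjusted p = 0.00372 by limma). MAPKKK15 (PGSC0003DMG400015019) encodes a kinase at the top of a MAP kinase cascade, which in Arabidopsis takes part in ABA signalling. It had 1.80, 1.86 and 43.8 normalized reads on day 0 and 295, 147 and 152 on day 6. A single watered library, c, thus held nearly all its day 0 reads. The log2 difference of MAPKKK15 was 4.73 (SE 1.10, adjusted p = 0.0247 by limma). This call was lost without day 0 library a (adjusted p = 0.105) or b (0.0815) and without day 6 library a (0.0865), b (0.0606) or c (0.0567).

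The calcium ion binding protein gene (PGSC0003DMG400007427) and the armadillo repeat protein gene (PGSC0003DMG400023602) had close levels on both days. The former had 756, 719 and 798 normalized reads on day 0 and 631, 655 and 772 on day 6, a log2 difference of -0.15 (SE 0.19, adjusted p = 0.638 by limma). The latter had 436, 517 and 465 on day 0 and 520.4, 407 and 476 on day 6, a log2 difference of -0.02 (SE 0.22, adjusted p = 0.963 by limma). For both, the libraries of the 2 days overlapped.

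Of 7 metabolic genes, 3 rose and 2 fell, beside 7.24% and 10.1% of all tested genes, and 2 were not called. Their median log2 difference was -0.97. These genes too were selected by the study for changes under drought, and their counts describe that choice. Aminoadipic semialdehyde synthase (PGSC0003DMG401015935), which catalyses the opening steps of lysine breakdown, had 1.80, 26.05 and 4.17 normalized reads on day 0 and 806, 441 and 213 on day 6. Every day 6 value was above every day 0 value, and the ratio of the means was 45.6. Its log2 difference was 5.86 (SE 0.91, adjusted p = 0.00575 by limma).

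Alcohol dehydrogenase (PGSC0003DMG400024849) turns acetaldehyde into ethanol in fermentation. It was listed at 0 in day 0 libraries a and b and had 54.3 normalized reads in c, while day 6 held 873, 1938 and 457. All day 6 libraries lay above day 0. The log2 difference was 7.91 (SE 1.51, adjusted p = 0.012 by limma) with a pseudocount of 1 and 5.64 with a pseudocount of 10, since 0 values make it depend on that choice. The call was lost without day 0 library a (adjusted p = 0.0649) or b (adjusted p = 0.0509) and with voom weights (adjusted p = 0.0826).

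The cytochrome P450 gene (PGSC0003DMG400014954), which belongs to a large family of monooxygenases, rose from an already moderate level. It had 272, 242 and 213 normalized reads on day 0 and 884, 726 and 642 on day 6. Replicates were tight on both days, at 242 ± 29.7 and 751 ± 123 (SD, n = 3 each). On the log2 scale the difference was 1.62 (SE 0.24, adjusted p = 0.0047 by limma).

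Both metabolic genes that fell did so by about 2-fold. PGSC0003DMG400022225, which the study paired with FAD4 of Arabidopsis, a desaturase of chloroplast lipids, had 2981, 2746 and 3245 normalized reads on day 0 and 1420.0, 1768 and 1408 on day 6. Its log2 difference was -0.97 (SE 0.18, adjusted p = 0.0104 by limma), and the adjusted p was 0.0545 without day 0 library a. SCPL19 (PGSC0003DMG400008018) is named for a serine carboxypeptidase-like protein that in Arabidopsis acts as an acyltransferase and makes sinapoylcholine. SCPL19 had 3361, 2845 and 3468 normalized reads on day 0 and 1393, 1444 and 1899 on day 6. Neither gene showed overlap between days. The log2 difference of SCPL19 was -1.04 (SE 0.19, adjusted p = 0.0109 by limma), and its adjusted p was 0.0603 without day 0 library a and 0.0508 without c.

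Phosphoglycerate mutase and a fatty acid desaturase were lower on day 6 in all libraries without passing the test. Phosphoglycerate mutase (PGSC0003DMG400020629), a glycolytic enzyme, had 115, 184 and 119 normalized reads on day 0, and on day 6 it was listed at 0 in library a and had 41.4 and 29.9 in b and c (log2 difference -3.65, SE 1.34, adjusted p = 0.105 by limma). It passed in 4 alternatives, with a pseudocount of 10 (adjusted p = 0.0297) and without day 6 library a (adjusted p = 0.0484) among them. The fatty acid desaturase gene (PGSC0003DMG400002943), whose product puts double bonds into fatty acids, had 566, 127 and 246 on day 0 and 118, 26.9 and 23.5 on day 6. The highest day 6 value lay close to the lowest day 0 value. Its log2 difference was -2.59 (SE 0.77, adjusted p = 0.0549 by limma), and it passed in 6 alternatives, without day 6 library a (adjusted p = 0.0288) among them.

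None of the 3 transport genes was called, beside 17.3% of all tested genes, and their median log2 difference was -0.52. The study selected all 3 in Tajfun and Owacja. NRT2.7 (PGSC0003DMG400006913), which in Arabidopsis carries nitrate into the vacuole, had 3625, 3466 and 4966 normalized reads on day 0 and 2598, 2412 and 2539 on day 6. All 3 day 6 values lay below day 0, and the log2 difference of -0.66 (SE 0.19, adjusted p = 0.0516 by limma) was just outside the threshold, which it passed without day 0 library b (adjusted p = 0.0482) and in 5 other alternatives. The carbohydrate transporter gene (PGSC0003DMG400019233) had 1132, 1021 and 985 on day 0 and 1786, 3257 and 907 on day 6. Day 6 library c was below the watered libraries and the other two were above, giving a log2 difference of 0.74 (SE 0.42, adjusted p = 0.269 by limma), and without library c the adjusted p was 0.0374. The lipid transfer protein gene (PGSC0003DMG400005731), whose product moves lipids between membranes, overlapped between days, with 741, 584 and 999.5 on day 0 and 595, 929 and 265 on day 6 (log2 difference -0.52, SE 0.45, adjusted p = 0.47 by limma).

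Among 4 genes for nucleotide binding and RNA, 1 rose and 1 fell, beside 7.24% and 10.1% of all tested genes, and 2 were not called. This count again describes genes that the study selected for changes under drought. The ATP binding protein gene (PGSC0003DMG400012174) was listed at 0 in day 0 library a and had 93.0 and 138 normalized reads in b and c. On day 6 it had 13251, 12343 and 4776, so that it moved from a low level to the range of the strongly expressed genes. Its log2 difference was 8.61 (SE 1.69, adjusted p = 0.0133 by limma), or 7.43 with a pseudocount of 10.

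The adenylyl cyclase-associated protein gene (PGSC0003DMG400000723), whose product binds actin, went the other way. It had 182, 177 and 73.0 normalized reads on day 0 and was listed at 0 in all 3 day 6 libraries. The log2 difference was -7.07 (SE 0.81, adjusted p = 0.00199 by limma) with a pseudocount of 1 and -3.85 with a pseudocount of 10, and no fold is given against a group listed at 0. The DEAD box RNA helicase gene (PGSC0003DMG400001771), whose product unwinds RNA, was listed at 0 in every library but day 0 library b, which had 76.3, and it was not called (adjusted p = 0.53 by limma). The nucleotide binding protein gene (PGSC0003DMG400005917) had 16.2, 20.5 and 12.5 on day 0 and 28.6, 120.0 and 38.4 on day 6, higher in all libraries but not called (log2 difference 1.61, SE 0.70, adjusted p = 0.158 by limma).

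The changes of greatest size lay outside the genes named by the study. By the rule of greatest log2 difference among 2982 called genes without overlap and with a mean of at least 100 normalized reads on the higher day, PGSC0003DMG400028543 and PGSC0003DMG400006802 led the rise. PGSC0003DMG400028543 was listed at 0 in day 0 libraries a and b and had 62.6 normalized reads in c, and on day 6 it had 10146, 9754 and 1167. Day 6 library c held far fewer reads of it than its fellows, though more than any day 0 library. The log2 difference was 10.25 (SE 1.65, adjusted p = 0.00653 by limma), and the call was lost with voom weights (adjusted p = 0.172). PGSC0003DMG400006802 had 10.8, 0 and 58.4 on day 0 and 3008, 6943 and 3557 on day 6, a log2 difference of 8.89 (SE 1.29, adjusted p = 0.00453 by limma).

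The falls of greatest size ended at 0. PGSC0003DMG400018129 had 4469, 1814 and 3748 normalized reads on day 0 and was listed at 0 in all day 6 libraries (log2 difference -11.61, SE 0.50, adjusted p = 0.000201 by limma). PGSC0003DMG401022600 had 909, 1055 and 624 on day 0 and was also listed at 0 in all day 6 libraries (log2 difference -9.72, SE 0.55, adjusted p = 0.000247 by limma). Neither difference is a fold, since it grows as the pseudocount shrinks. The annotation used here pairs none of these 4 identifiers with a name.

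More genes went without reads on day 6 than on day 0. No reads in any day 0 library were listed for 2513 genes, of which 76 had reads in all 3 day 6 libraries and 6 reached a mean of 100 normalized reads, the highest 534. No reads in any day 6 library were listed for 3470 genes, of which 378 had reads in all 3 day 0 libraries and 52 reached a mean of 100, the highest 3343. Of the genes listed at 0 throughout day 0, 25 were called as risen, and of those listed at 0 throughout day 6, 148 were called as fallen. A 0 is an estimate of the software that assigned reads to transcripts, and it also occurs in single libraries of genes that are otherwise well read. On day 0, 73 of 13654 genes (0.53%) with a median of at least 100 normalized reads were listed at 0 in 1 library, and on day 6 these were 189 of 13091 (1.44%), 114 of them in library b. Whether such zeros contribute to the genes listed at 0 throughout day 6 was not tested.

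Larger candidate lists were taken from the study's RT-PCR primers, which carry labels for the cultivar pair. Of 33 genes with primers for Gwiazda and Oberon, 13 rose, 16 fell and 4 were not called, so that 87.9% changed beside 17.3% of all tested genes. The choice used a change in Gwiazda, and this share therefore describes the list. Of 55 genes with primers for Tajfun and Owacja only, a number that need not equal the study's own selection, 54 were tested, and 6 rose, 5 fell and 43 were not called. Their share of 20.4% is close to the 17.3% of all tested genes. Their median absolute log2 difference was 0.62, beside 0.576 over all tested genes and 2.37 over the list from Gwiazda and Oberon.

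The 8 genes that the study chose as stable had log2 differences between -0.27 and 0.18, and none was called, beside 17.3% of all tested genes. The study chose them for little change over these days in all cultivars, with these libraries among others. Their small differences therefore describe the choice. The gene for a BTB-POZ and MATH protein (PGSC0003DMG400022701), a family of adaptors for ubiquitin ligases, had 4449, 4288 and 4390.4 normalized reads on day 0 and 3865, 4684 and 4786 on day 6. Its log2 difference was 0.02 (SE 0.16, adjusted p = 0.959 by limma). The fibronectin type III protein gene (PGSC0003DMG400027427) moved farthest of the 8, by -0.27 (adjusted p = 0.463 by limma), and the transcription factor IIB gene (PGSC0003DMG400014907) lay at the other end, at 0.18. Cyclophilin (PGSC0003DMG400001630), a prolyl isomerase gene used by the study as RT-PCR reference, varied more between libraries than these genes. It had 19115, 9979.7 and 24496 normalized reads on day 0 and 26037, 31769 and 14792 on day 6, and it was not called (log2 difference 0.46, SE 0.40, adjusted p = 0.466 by limma).

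To see where the Gwiazda response differed from that of other cultivars, the day 6 minus day 0 difference was tested against that of Oberon and of Tajfun with an interaction term. Against Oberon, 6 of 19075 tested genes (0.0315%) were called, 1 with a higher and 5 with a lower response in Gwiazda, and 1276 genes had an unadjusted p below 0.05. The number ranged from 4 to 36 when single libraries were left out, the highest being without Gwiazda day 6 library c, and it was 1 with voom weights. Of the 5 genes with a lower response, 4 were listed at 0 in all Gwiazda day 6 libraries. Against Tajfun, 436 of 19437 tested genes (2.24%) were called, 196 with a higher and 240 with a lower response in Gwiazda, and 3268 genes had an unadjusted p below 0.05. Scaling to equal totals of reads changed this split to 106 higher and 572 lower, a pseudocount of 10 to 282 and 317, and voom weights to 163 and 137. Without Gwiazda day 0 library a the number was 194 and without b it was 771. A low number of calls does not show that the responses were alike.

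The cytochrome P450 gene differed in direction. While its transcript rose in Gwiazda from 242 ± 29.7 to 751 ± 123 normalized reads, it went in Oberon from 523, 531 and 543 on day 0 to 66.8, 109.9 and 47.8 on day 6, a log2 difference of -2.90 (adjusted p = 0.00371 by limma). In Tajfun it went from 1463, 1887 and 1559 to 159, 132 and 199, a log2 difference of -3.33 (adjusted p = 2.29e-05 by limma). All 3 day 6 libraries thus lay above the day 0 libraries in Gwiazda and below them in Oberon and in Tajfun. The Gwiazda response was higher by 4.52 log2 units than that of Oberon (SE 0.43, adjusted p = 0.00196 by limma) and by 4.97 than that of Tajfun (SE 0.30, adjusted p = 4.4e-05 by limma), and both calls held in every alternative run. The study chose this gene for its behaviour in Tajfun and Owacja.

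The adenylyl cyclase-associated protein gene, listed at 0 in Gwiazda on day 6, had reads on day 6 in Oberon and Tajfun. The study chose it for a change in Gwiazda and a difference from Oberon under drought, with these libraries. Its contrast with Oberon is therefore no independent evidence. Oberon had 159, 220.3 and 142 normalized reads on day 0 and 129.7, 109.9 and 132 on day 6, and Tajfun had 311, 249 and 441 on day 0 and 206, 153 and 106 on day 6. The Gwiazda response minus that of Oberon was -6.57 log2 units (SE 0.68, adjusted p = 0.00345 by limma), and minus that of Tajfun it was -5.95 (SE 0.65, adjusted p = 0.00128 by limma). With voom weights neither difference was called (adjusted p = 0.534 and 0.0788), and with a pseudocount of 10 that from Oberon was not called (adjusted p = 0.0905). PGSC0003DMG400018129, also listed at 0 on day 6 in Gwiazda, fell in Oberon from 1544 ± 214 to 465 ± 225 normalized reads (SD, n = 3 each) and was listed at 0 on day 6 in Tajfun. Its response in Gwiazda minus that in Oberon was -9.73 log2 units (SE 0.60, adjusted p = 5.3e-05 by limma, and 0.534 with voom weights).

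A further 4 named genes were called as different from Tajfun, which made 6 of 24 beside 2.24% of all tested genes. The study chose the fatty acid desaturase gene for its change in Gwiazda and the others for their change in Tajfun, with these libraries. Such differences were thus favoured by the choice. None of them was called against Oberon, and whether the contrasts with Oberon and with Tajfun differ was not tested. The calcium ion binding protein gene went from 319 ± 15.8 to 71.3 ± 34.0 normalized reads in Tajfun (SD, n = 3 each) while its Gwiazda libraries overlapped, a difference in response of 2.15 log2 units (SE 0.46, adjusted p = 0.0342 by limma). For the armadillo repeat protein gene the Tajfun levels were 496 ± 47.0 and 179 ± 32.8 (SD, n = 3 each), a difference of 1.49 (SE 0.29, adjusted p = 0.0236 by limma). PGSC0003DMG400022225 fell in both cultivars, but in Tajfun to 509 ± 110 from 3227 ± 390.4 (SD, n = 3 each), and the Gwiazda response was higher by 1.74 (SE 0.26, adjusted p = 0.00692 by limma). The fatty acid desaturase gene had 26.9 ± 9.25 and 87.1 ± 25.99 in Tajfun (SD, n = 3 each), and the Gwiazda response minus that of Tajfun was -4.24 (SE 0.96, adjusted p = 0.0441 by limma). The calls of the calcium ion binding, armadillo repeat and desaturase genes were lost in 9, 6 and 11 of the alternatives, and for the calcium ion binding gene, for example, the adjusted p was 0.0587 with scaling to equal totals. RAB18 and CAP160 showed no called difference from Oberon (adjusted p = 0.905 and 0.821) or from Tajfun (adjusted p = 0.866 and 0.388 by limma). This compares changes, not levels. With each cultivar normalized on its own, CAP160 went from 180 to 34454 normalized reads in Gwiazda and from 23.9 to 9545 in Oberon. RAB18 stood at 2094 and 1935 on day 6. By RT-PCR over the days of drought, the study reported generally more RAB18 transcript in tolerant than in sensitive cultivars. It also reported a stronger CAP160 induction in tolerant cultivars. Here the log2 response of CAP160 was 7.91 in Gwiazda, 8.86 in Oberon and 9.43 in Tajfun. Day 6 levels were not tested between cultivars here.

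**Figure D5:**
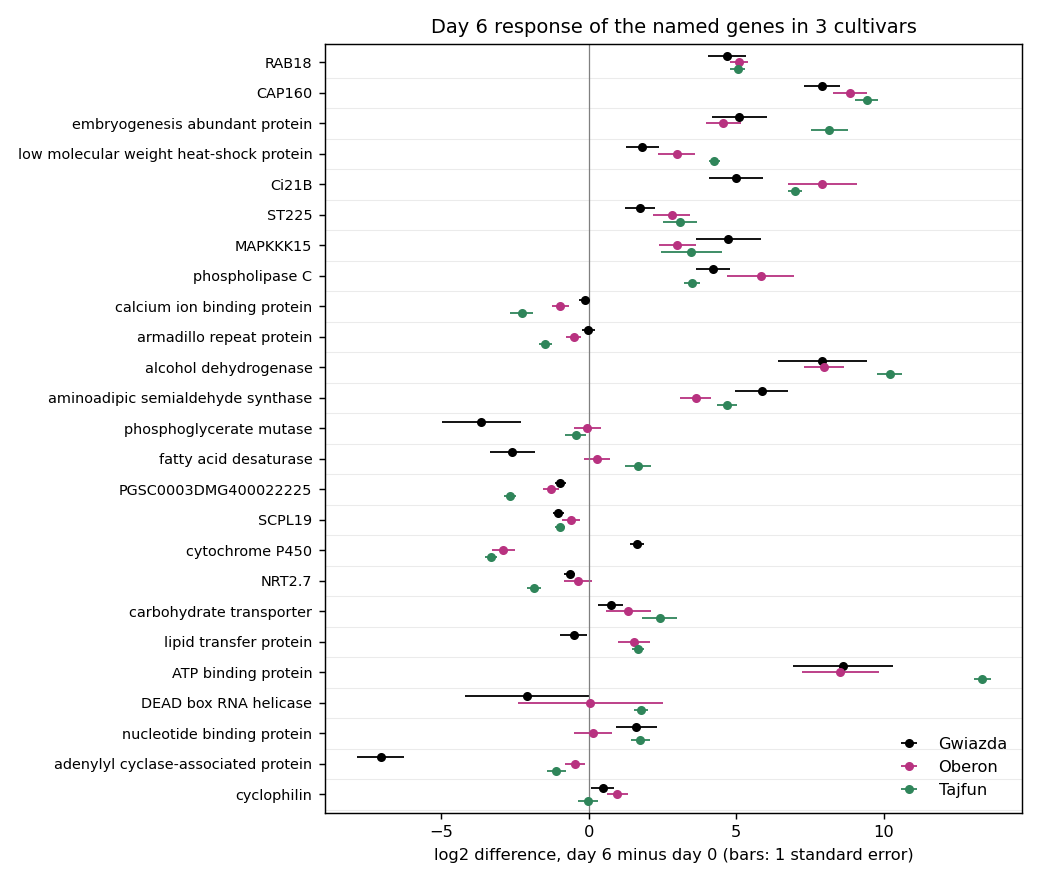
Log2 difference between day 6 and day 0 (horizontal axis) of 25 named genes in Gwiazda (black), Oberon (magenta) and Tajfun (green), with bars of 1 standard error from 3 libraries a day. The cytochrome P450 gene lies at 1.62 in Gwiazda and at -2.90 and -3.33 in Oberon and Tajfun, and the adenylyl cyclase-associated protein gene at -7.07 in Gwiazda.

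The day 10 leaves of Gwiazda place these values in time, with the 3 days normalized together and no test of day 10 made. CAP160 stood lower on day 10, at 7395 ± 892 normalized reads beside 34515 ± 13161 on day 6 (SD, n = 3 each). RAB18 likewise stood at 1017 ± 256 beside 2100 ± 1298, although its lowest day 6 library lay within the day 10 range. The low molecular weight heat-shock protein gene, not called on day 6, stood at 7826 ± 1783 on day 10 beside 313 ± 149 on day 6. Aminoadipic semialdehyde synthase also stood higher on day 10, at 2308 ± 671 beside 488 ± 299. The cytochrome P450 gene had 651 ± 121 on day 10, and the adenylyl cyclase-associated protein gene was again listed at 0 in all 3 libraries.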

How the data were processed

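The 6 libraries were strand-specific, paired-end RNA-seq of total RNA from leaves. As described for the study, reads were mapped to the Phureja DM1-3 potato genome with TopHat2 after FastQC, Flux Capacitor estimated the reads of each transcript, isoforms were summed per gene, and group pairs were compared. The authors ran DESeq on each pair and deposited group means of normalized reads (a signal, in reads divided by size factors), of which 17 of 18 tables were used, and their own fold changes, p-values and adjusted p-values, which were not used. Each group stands in 3 tables with different size factors, so the reads of its 3 libraries were solved from the means. Values lay within 1e-05 of whole numbers for all 25289 genes, and on simulated reads the same steps returned 25289 of 25289 genes exactly. Zero reads are software estimates. Library letters carry no replicate number.

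Genes with a mean of at least 10 normalized reads were tested with limma 3.58.1 (R 4.3.3, intensity trend, 2-sided) on log2(normalized reads + 1), with Benjamini-Hochberg adjustment over all tested genes and a threshold of 0.05. Cultivars were compared by an interaction term over 12 libraries. On simulated data, the comparison of day 6 with day 0 recovered 36.4%, 77.6% and 91.0% of genes changed by 1, 2 and 3 log2 units. The interaction test recovered 10.6%, 52.2% and 83.6% against Oberon and 6.1%, 70.1% and 86.6% against Tajfun. Only 200 genes were changed, and each gene had the median spread of genes of like abundance. These shares need not hold for the real libraries. Recovered reads in genes summed to 35693914 to 40437223 a library, more than the mapped reads the study lists for these groups. Named genes were those the study gives with identifiers, plus the 2 that rose and the 2 that fell most. No cell type markers could be named, since 0 identifiers matched the annotation used. Members and lists were chosen with earlier results of these data known. Alternatives covered filters, pseudocounts, scaling, weights, thresholds and single libraries.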

Additional observations from a re-analysis of the deposited data

Results flagged for a closer look

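The day 6 response of 6 genes differed between Gwiazda and Oberon, and that of 436 genes between Gwiazda and Tajfun, by a test of the difference itself (limma interaction term). Each value below is the log2 response of Gwiazda minus that of the other cultivar. The cytochrome P450 gene was at 4.52 against Oberon and at 4.97 against Tajfun, with a rise in Gwiazda beside a fall in Oberon and in Tajfun. The adenylyl cyclase-associated protein gene was at -6.57 against Oberon and at -5.95 against Tajfun, and PGSC0003DMG400018129 was at -9.73 against Oberon. Both are listed at 0 in all Gwiazda day 6 libraries. Against Tajfun, the calcium ion binding protein gene was at 2.15, the armadillo repeat protein gene at 1.49, PGSC0003DMG400022225 at 1.74 and the fatty acid desaturase gene at -4.24. PGSC0003DMG400018129 was picked here for its fall in Gwiazda. The other genes were chosen by the study for changes in Gwiazda or in Tajfun, with these libraries. Values that rest on the libraries of the choice are therefore no independent evidence of a difference. The choice of the cytochrome P450 gene used Tajfun and Owacja, not Gwiazda or Oberon. Its value against Oberon is listed here because the difference was called.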

How the results depend on the processing

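No paired analysis was possible because the columns carry no replicate numbers, so no replicate block was fitted. The number of genes called ranged from 1192 to 3189 when each library was left out in turn, with 550 to 1428 rising and 642 to 1987 falling, and rises outnumbered falls only without day 0 library b (1428 and 1403). At an adjusted p below 0.01, 1198 genes were called, 520 rising and 678 falling. With library quality weights, an alternative chosen after seeing the data, 4885 were called, 2146 rising and 2739 falling. Under the other filters, pseudocounts, scalings and weights the number lay within 1.5 times of 3277, and in no alternative did a gene called here change sign. Scaling to equal totals moved the median of all tested genes to -0.088. In the 2-fold counts of group means, a minimum of 10 reads gave 6223 genes (2262 higher, 3961 lower), a minimum of 1000 gave 1479 (726 higher, 753 lower), 1.5-fold gave 6222 (2762 higher, 3460 lower) and 4-fold gave 1375 (498 higher, 877 lower). The number of genes called as different from Oberon was 1 with voom weights and 4 to 36 with single libraries left out. The number called as different from Tajfun was 678 with scaling to equal totals and 194 to 771 with single libraries left out. How many of these genes were shared was not counted. For 37 named results, 588 alternative values of the day 6 comparison were computed, of which 16 lost a call, 22 gained one and 0 reversed. The causes of these changes were not tested. A further 4621 genes with reads had a mean too low to be tested.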
